A study of Homo sapiens with 2 samples.

Results

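The 10 genes described here belong to transforming growth factor beta (TGF-beta), bone morphogenetic protein (BMP) and activin signalling, and were followed through single-cell RNA libraries of HUVECs. These human umbilical vein endothelial cells are primary cells from the lining of the cord vein. They were chosen by symbol from the 36601 genes of the feature table, and all 10 were found in both libraries. They are the ligand genes BMP4, INHBA and TGFB2, the antagonist FST, the receptors TGFBR2 and ENG, the inhibitory factors SMAD6 and SMAD7, and the targets ID1 and ID3. The cells had grown in EGM-2 medium under flow for about 48 hours until they lined the 50 µm channels of a microfluidic device. Red blood cells were then perfused for 4 hours. In the group called hRBC these were healthy red blood cells alone. In the group called 5% pdRBC, 5% of the red cells had been dehydrated with nystatin and sucrose washes, which brought their mean hemoglobin concentration to between 40 and 42 g/dL, and the remainder were healthy. The dehydrated cells stand in for the stiffer red cells of sickle cell disease, and the comparison asks how the endothelium differs when a small fraction of stiff cells is present. No group without red cells is among the samples, and the labels do not say how many donors or devices each library holds.

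Ligands of this family bind pairs of type I and type II receptor kinases, which phosphorylate SMAD proteins that enter the nucleus and regulate transcription. TGF-beta and activins act mainly through SMAD2 and SMAD3, and BMPs through SMAD1, SMAD5 and SMAD9. In endothelium the BMP branch is known for its role in vessel quiescence and its response to blood flow, and loss of endoglin, the product of ENG, causes hereditary haemorrhagic telangiectasia. SMAD6, SMAD7, ID1 and ID3 are induced by the signal itself, and the first pair feeds back to damp it.

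There is 1 library per group, made with a 5′ kit, so no difference below can be checked against replicates, and neither tests nor p-values were computed. After the cell filter the hRBC library held 2555 cells with 13335148 UMIs (unique molecular identifiers, which count RNA molecules) and a median of 2175 per cell. The 5% pdRBC library held 1601 cells with 16127985 UMIs and a median of 9566. Levels are given as CPM, the UMIs of a gene scaled to the library's total in the usual way, and a fold is the CPM with 5% pdRBC over that with hRBC after adding 0.5 UMIs to each sum. All intervals are exact 95% intervals of counting error only, and do not include the spread between devices, cultures or cells. Of the deposited barcodes 9 occur in both libraries, 6 of them among kept cells. The cells carried the endothelial markers: all 10 of the fixed list were measured (100 or more UMIs over both libraries), summing to 3954 CPM with hRBC and 3745 CPM with 5% pdRBC. Leukocyte, platelet and erythroid markers summed to less than 1 CPM in each library, with CD3E, CD3D, MS4A1, NKG7, FCGR3B, PPBP, PF4, GP9, HBA1, HBA2, ALAS2 and SLC4A1 at 0 in both.

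The stretches upstream of SMAD6 and ID1 are shown because these members differ in what the window before their start contains. Each is the 250 bases before a RefSeq start on GRCh38.p14, plus strand, written 5′ to 3′. For SMAD6 (chr15:66701986-66702235) the capitals mark GTCTAGAC, the palindrome known to bind SMAD proteins, and for ID1 (chr20:31605039-31605288) they mark overlapping matches to the TATA box letters TATAAA on both strands.
SMAD6: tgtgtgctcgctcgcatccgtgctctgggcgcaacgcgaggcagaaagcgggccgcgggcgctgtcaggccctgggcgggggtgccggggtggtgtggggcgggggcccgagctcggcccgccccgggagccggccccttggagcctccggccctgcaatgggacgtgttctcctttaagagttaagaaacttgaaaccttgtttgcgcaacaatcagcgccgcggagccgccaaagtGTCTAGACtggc
ID1: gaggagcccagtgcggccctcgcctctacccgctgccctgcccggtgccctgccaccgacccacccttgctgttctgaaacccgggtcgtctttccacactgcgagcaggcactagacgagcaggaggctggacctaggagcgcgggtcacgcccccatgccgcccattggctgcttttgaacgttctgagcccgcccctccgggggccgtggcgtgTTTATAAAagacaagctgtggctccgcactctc

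The palindrome (chr15:66702224-66702231) begins 12 bases before the RefSeq start of SMAD6. The GENCODE start of SMAD6 lies at 66702228, so the last 4 bases of the palindrome are inside that gene model. It was in no other window of the 10 members, which have 15 windows between them, and in 64 of all 35116 windows of the same length (0.182%). The TATA letters begin 31 bases before the ID1 start on the gene's strand, and they also occur before TGFB2, INHBA and SMAD7. They were in 10.7% of all windows. The shorter SMAD box CAGAC, found before ID3, TGFB2, BMP4 and SMAD7, was in 38.0% of all windows. The GC-rich motif GGCGCC was found before BMP4 alone among the members, and in 16.4% of all windows. Both strands were searched for each motif, and a match of letters is not a bound site. The SMAD6 window holds no CAGAC match, so its palindrome overlaps none.

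FST was lower with 5% pdRBC and TGFBR2 was higher, while the 8 other members had log2 folds between -0.20 and 0.27. FST was the single member past 1.5-fold lower, as were 121 of 11043 measured genes (1.1%), and no member was past 1.5-fold higher, as were 171 measured genes (1.55%). At the 1.2-fold line 2 members were higher, BMP4 and TGFBR2, against 10.4% of measured genes, and FST was again the 1 lower, against 7.43%. The interval of the fold left out 1 on the higher side for BMP4, INHBA and TGFBR2 (15.4% of measured genes) and on the lower side for FST, ENG and ID1 (12.2%). The median log2 fold was 0.03 over the members and 0.02 over all measured genes. The members as a set therefore had folds around the middle of the transcriptome, with FST at the low end.

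**Figure D1:**
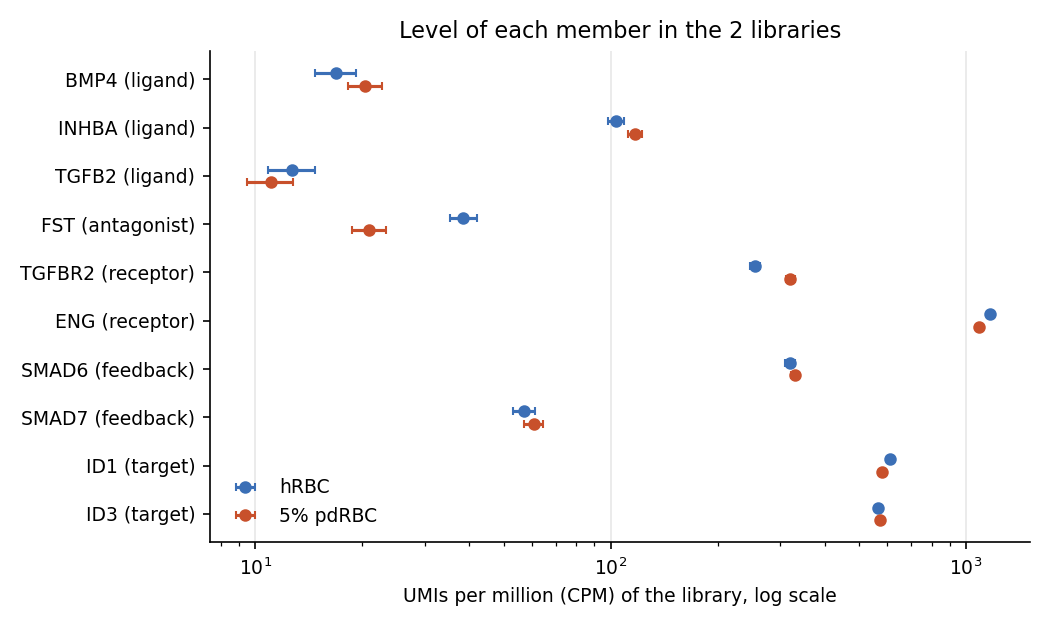
Level of each of the 10 genes in the 2 libraries, in CPM on a log axis. Points are 1 library each, bars are exact 95% Poisson intervals of counting error, and FST (38.5 against 20.9 CPM) and TGFBR2 (255 against 320 CPM) show the widest separation relative to their bars.

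Of the ligands, BMP4 (chr14:53949736-53958761, minus strand), a BMP that endothelium under disturbed flow is known to make, had 225 UMIs with hRBC and 328 with 5% pdRBC. Its level was 16.9 CPM (14.7 to 19.2) and 20.3 CPM (18.2 to 22.7), a log2 fold of 0.27 (0.02 to 0.52). The intervals of the levels overlap, and the fold was below 1.2 under 5 of the 13 alternatives that measured BMP4, down to 1.15 without the cycling cluster. INHBA (chr7:41667168-41705834, minus strand) encodes the inhibin beta A chain, 2 copies of which form activin A. It stood at 103 CPM (97.95 to 109) with hRBC and 117 CPM (112 to 122) with 5% pdRBC, 1.13-fold higher (1.06 to 1.21). Without the cells of cluster 3, led by TMEM158 and EGR1, the INHBA fold was 0.975. Leaving them out also changes the mix of cells, and the part of cluster 3 in the difference was not tested. In kept cells under 5000 UMIs the INHBA fold was 1.005 (0.749 to 1.31). TGFB2 (chr1:218346235-218444619, plus strand), a TGF-beta isoform, had few counts, 169 and 178 UMIs. Its levels of 12.7 CPM (10.8 to 14.7) and 11.0 CPM (9.47 to 12.8) overlapped, and the fold of 0.871 had an interval on both sides of 1 (0.702 to 1.08).

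Follistatin, encoded by FST (chr5:53480409-53487134, plus strand), binds activin A tightly and keeps it from its receptors, so it is the antagonist of the INHBA product. FST had 513 UMIs with hRBC and 337 with 5% pdRBC, or 38.5 CPM (35.2 to 41.9) and 20.9 CPM (18.7 to 23.2). The hRBC level was the higher by 1.84-fold (1.60 to 2.12), and the intervals of the levels lay apart. Its size depended on depth. FST was 1.75-fold lower with 5% pdRBC in cells of 5000 or more UMIs and 3.17-fold lower in kept cells under 5000 UMIs, where 5% pdRBC had 231 cells and 9 FST UMIs. With every cell weighted equally the levels were 48.9 and 20.6 CPM, 2.37-fold lower. With each cell thinned to 2000 UMIs, which leaves out 1180 hRBC and 44 5% pdRBC cells below that depth, FST was 1.28-fold lower with an interval on both sides of 1 (0.895 to 1.83). Thinned to 5000 UMIs it was 1.43-fold lower (1.12 to 1.82). FST was lower with 5% pdRBC in all 14 alternatives run.

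The FST counts sat in few cells. Of the hRBC cells 179 (7.01%) had any FST UMI, and 20 cells (0.783%) with 5 or more held 54.6% of the FST UMIs. Of the 5% pdRBC cells 110 (6.87%) had one, and 26 cells (1.62%) with 5 or more held 60.2%. The 10 highest cells held 36.8% and 34.1% of the UMIs, with up to 27 and 18 in a single cell. After thinning to 5000 UMIs, the variance of FST across cells was 3.99 times its mean with hRBC and 3.48 times with 5% pdRBC. The median gene had a ratio of 1.05, and FST exceeded 99.7% and 99.5% of genes. The counting intervals of FST take no account of this clumping. Thinned to 2000 UMIs, 3.13% (2.27 to 4.19) of hRBC cells and 2.70% (1.95 to 3.63) of 5% pdRBC cells had an FST UMI, intervals that overlap. Thinned to 1000 UMIs, which keeps every cell, the shares were 3.41% (2.74 to 4.18) and 1.69% (1.11 to 2.44), intervals that lie apart. No cell type that should lack these genes is present in the libraries, so the share given by free RNA could not be measured.

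TGFBR2 (chr3:30606502-30694142, plus strand) is the type II receptor that binds TGF-beta first and then recruits the type I partner. It had 3396 UMIs with hRBC and 5162 with 5% pdRBC, or 255 CPM (246 to 263) and 320 CPM (311 to 329). The 5% pdRBC level was 1.26-fold higher (1.203 to 1.31), and the intervals lay apart. The share of cells with a TGFBR2 UMI, each thinned to 2000 UMIs, was 37.5% (35.0 to 40.1) with hRBC and 44.6% (42.1 to 47.1) with 5% pdRBC. Without thinning it was 54.7% and 85.8%, a gap that the depth of the libraries widens. Across the 14 alternatives its log2 fold ran from 0.16, without the cells of cluster 1, to 0.49, without those of cluster 3. With every cell weighted equally TGFBR2 was 1.16-fold higher. ENG (chr9:127815012-127854756, minus strand) encodes endoglin, a co-receptor abundant on endothelium that presents BMPs and TGF-beta to the kinases. Its level was 1168 CPM (1149 to 1186) with hRBC and 1086 CPM (1070 to 1102) with 5% pdRBC, 1.08-fold lower (1.05 to 1.10). ENG was seen in 87.9% and 84.8% of thinned cells. AL162586.1, which overlaps ENG on the opposite strand, was counted separately, with 325 and 394 UMIs. The strand setting of the counting is not given, and whether reads of 1 gene of such a pair were counted for the other was not checked.

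**Figure D2:**
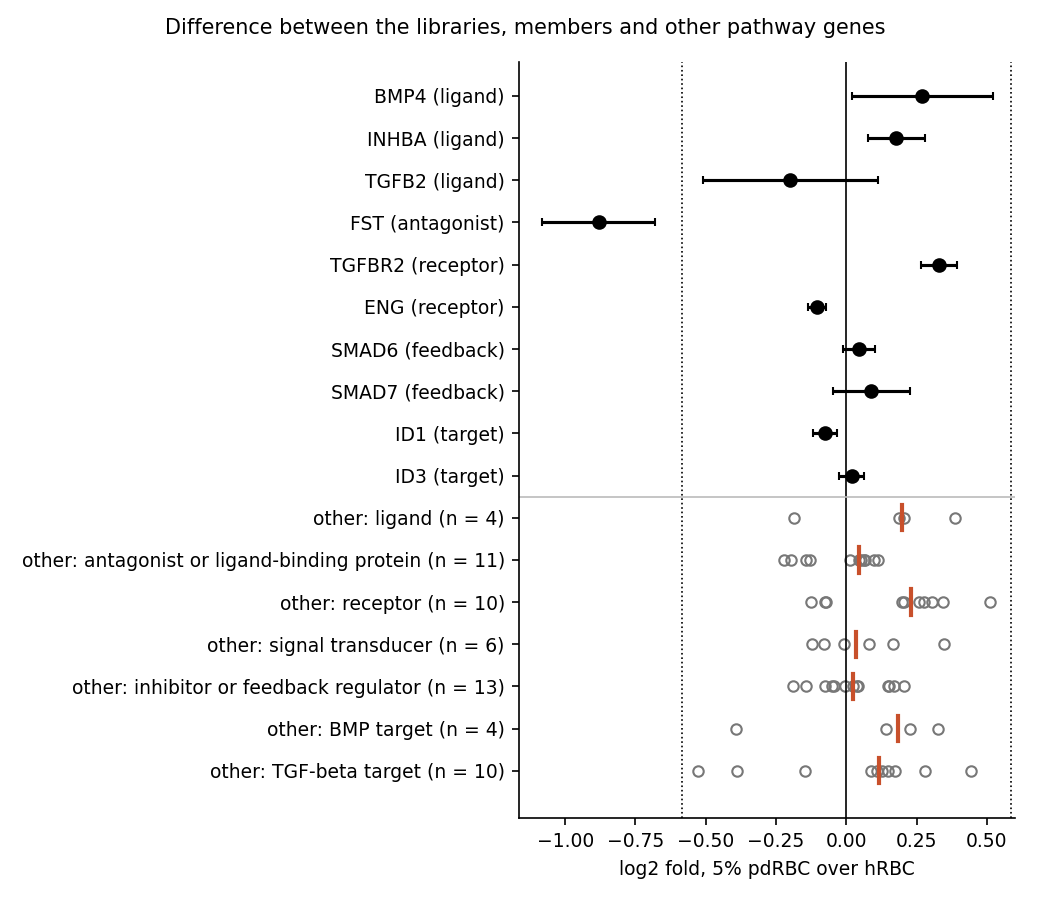
Log2 fold of 5% pdRBC over hRBC for the 10 genes (black points, bars are exact 95% counting intervals) and for 58 other measured genes of the pathways by role (open circles, with n genes, and a red mark at the median). Dotted lines mark 1.5-fold in either direction, which FST passes at a log2 fold of -0.88 and no other gene shown passes.

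SMAD6 (chr15:66702228-66782848, plus strand) is the inhibitory SMAD that acts mainly on BMP signals. It had 320 CPM (310 to 329) with hRBC and 330 CPM (321 to 339) with 5% pdRBC, a fold of 1.03 (0.991 to 1.07). In kept cells under 5000 UMIs the SMAD6 fold was 1.36, and without cluster 1 it was 0.931. SMAD7 (chr18:48919853-48952052, minus strand), the inhibitory SMAD that blocks both branches, stood at 57.0 CPM (53.0 to 61.2) and 60.6 CPM (56.9 to 64.6), a fold of 1.06 (0.967 to 1.17). Neither inhibitor differed beyond its counting error over all kept cells.

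ID1 (chr20:31605283-31606515, plus strand) and ID3 (chr1:23557918-23559794, minus strand) are helix-loop-helix proteins that bind and block other transcription factors, and are the usual readout of BMP signalling in endothelium. ID1 had 610 CPM (597 to 624) with hRBC and 580 CPM (568 to 592) with 5% pdRBC, 1.05-fold lower (1.02 to 1.08). ID3 had 565 CPM (553 to 578) and 573 CPM (562 to 585), a fold of 1.01 (0.983 to 1.05). The ID1 difference changed with depth. In kept cells under 5000 UMIs its levels were 704 and 455 CPM, 1.55-fold lower with 5% pdRBC, and those of ID3 were 573 and 438 CPM, 1.31-fold lower. In cells of 5000 or more UMIs they were 578 and 586 CPM for ID1, with the direction turned (fold 1.01, 0.979 to 1.05), and 563 and 579 CPM for ID3. Without cluster 1, whose cells were deep (medians of 8812.5 and 8694 UMIs), the ID1 fold was 1.005. Within that cluster ID1 was at 500 and 454 CPM, a fold of 0.910 (0.844 to 0.981). Leaving out cluster 1 changes both the depth and the mix of cells, and their parts in the ID1 difference were not tested. The band under 5000 UMIs held 1786 hRBC cells and 231 5% pdRBC cells. With cells thinned to 2000 UMIs, 68.3% (65.8 to 70.7) of hRBC cells and 60.3% (57.8 to 62.7) of 5% pdRBC cells had an ID1 UMI, and 64.5% and 63.6% had one of ID3.

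**Figure D3:**
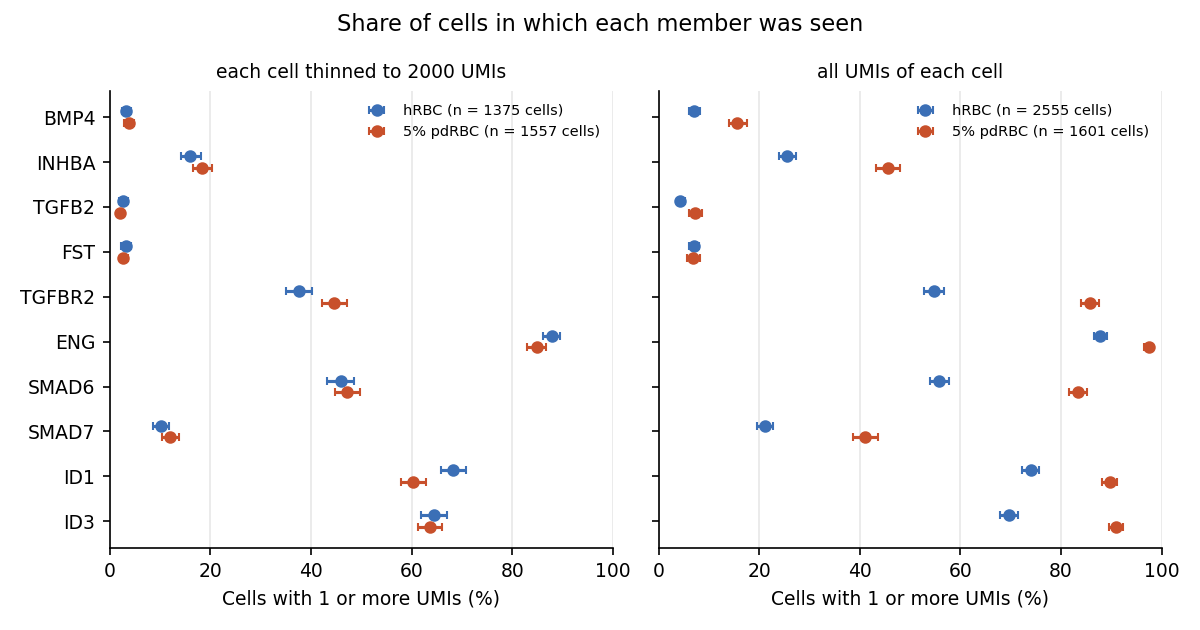
Share of cells with 1 or more UMIs of each gene, in percent with exact 95% binomial intervals, after thinning each cell to 2000 UMIs (left) and with all UMIs (right). On the left TGFBR2 (37.5% and 44.6%) and ID1 (68.3% and 60.3%) have intervals that lie apart, and on the right the deeper 5% pdRBC library has the higher share for 9 of the 10 genes, FST excepted.

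To see where in the population the genes were used, the kept cells of both libraries were clustered on other genes, leaving out the 10 genes and the rest of the pathway list. Clusters are described by number and leading genes, with no test, and those of 50 or more cells are given. Cluster 0 (484 cells) was led by the mitotic genes AURKB, CDK1 and UBE2C, cluster 1 (755 cells) by SLC40A1 and MAGI1, and cluster 3 (887 cells) by TMEM158 and the immediate early gene EGR1. Cluster 4 (584 cells) was led by FABP4 and MGP, cluster 5 (121 cells) by the inflammatory genes CCL20 and SELE, and cluster 6 (100 cells) by SOX5 and PRKG1. Cluster 2 (1175 cells) had a median of 1542 UMIs and held 1133 hRBC and 42 5% pdRBC cells, so it may be a feature of that library.

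FST and TGFB2 varied most between clusters. With both libraries summed, FST was at 59.3 CPM in cluster 0 and 50.6 CPM in cluster 5, and at 2.30 CPM (13 UMIs) in cluster 4, a ratio of 25.7 between the highest and lowest cluster. The top of that order differed by library. With hRBC cluster 0 was highest (81.8 CPM) and cluster 5 had 1 FST UMI, and with 5% pdRBC cluster 0 (30.7 CPM) was below cluster 5 (108 CPM, 18 UMIs in 17 cells), cluster 6 (58.5 CPM) and cluster 3 (31.3 CPM). TGFB2 was at 63.9 CPM in cluster 5 (24 UMIs) and 37.2 CPM in cluster 6, against 3.19 CPM in cluster 4, a ratio of 20.03. INHBA was at 168 CPM in cluster 5 and 166 CPM in cluster 3, and lowest in cluster 4 at 43.6 CPM. At this resolution INHBA, FST and TGFB2 were thus all lowest, libraries summed, in the FABP4 and MGP cluster. For INHBA the interval there (38.3 to 49.4 CPM) overlapped that of cluster 6 (48.6 CPM, 28.3 to 77.8, 17 UMIs), so their order cannot be told. With hRBC alone INHBA was lower in cluster 6 (13.8 CPM, 2 UMIs) than in cluster 4 (34.1 CPM). At the finer resolution of 1.0 INHBA was again lowest in the cluster led by MGP and FABP4 (45.8 CPM, 39.1 to 53.3). That interval overlapped the one of a cluster led by WWTR1-AS1 (52.5 CPM, 38.0 to 70.7). At that resolution FST and TGFB2 were at 0 in a cluster of 77 cells, where the interval of each reaches 10.8 CPM. They were at 2.52 and 4.31 CPM in a cluster led by ACE and DACH1, against 2.74 and 4.94 CPM in the MGP and FABP4 cluster. Which of these clusters was lowest for FST and TGFB2 cannot be told from such counts. Summed over libraries, ID1 and ID3 were highest in cluster 4, at 825 and 686 CPM. With hRBC alone ID3 was higher in cluster 0 (653 CPM) than in cluster 4 (619 CPM). Summed ENG was also highest in cluster 4, at 1301 CPM, but with hRBC alone ENG was higher in cluster 6 (1578 CPM) than in cluster 4 (1349 CPM). ENG varied 1.40-fold over the 7 clusters, and 2.75-fold at the finer resolution. SMAD6 was at 918 CPM in cluster 6 and 170 CPM in cluster 5. The cluster 5 level was 90.6 CPM with hRBC and 271 CPM with 5% pdRBC, and with 5% pdRBC cluster 3 was lower (229 CPM). TGFBR2 reached 521 CPM and SMAD7 103 CPM in cluster 6, where ID1 (343 CPM) and ID3 (243 CPM) were lowest. Cells of cluster 6 carried 4.72% (hRBC) and 7.24% (5% pdRBC) mitochondrial UMIs and 3.34% and 3.92% MALAT1 and NEAT1, nuclear RNAs, above clusters 0 to 5 in both measures. The part of RNA quality in the SMAD6, TGFBR2 and ID levels of that cluster was not tested. BMP4, with 11 UMIs in cluster 5 and 4 in cluster 6, was too sparse there to rank.

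**Figure D4:**
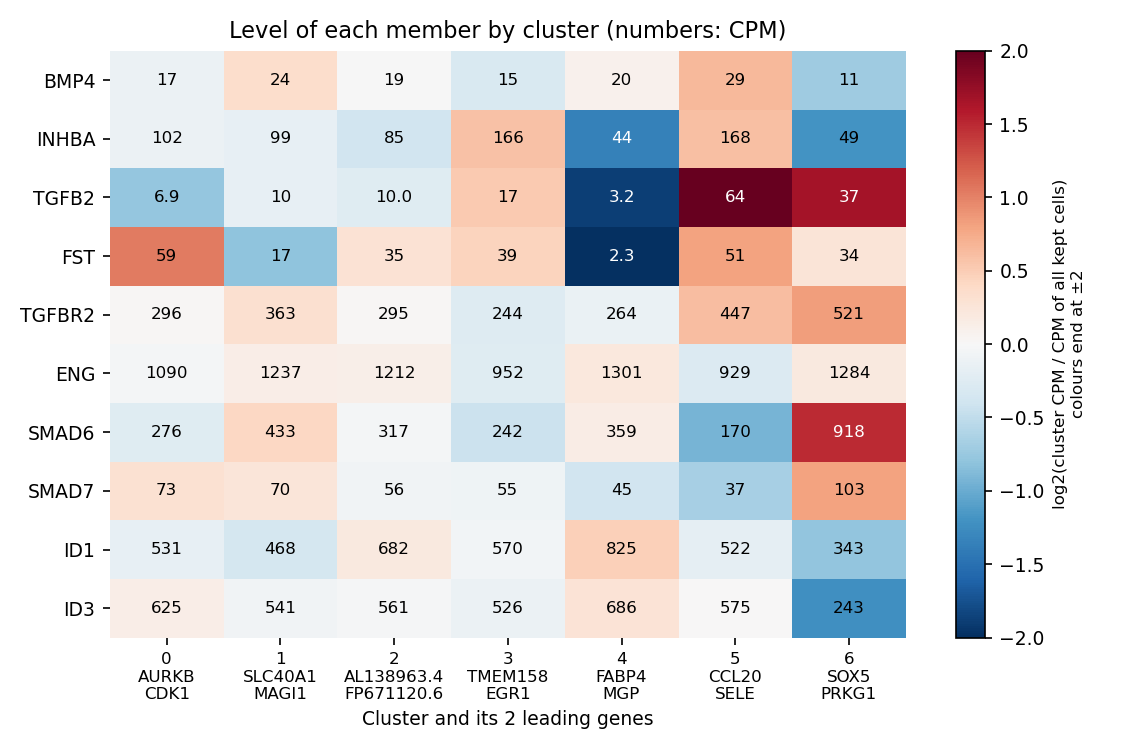
Level of each gene (rows) in the 7 clusters of 50 or more cells (columns, with 2 leading genes each), both libraries summed. Numbers are CPM, colours are the log2 ratio to all kept cells (ending at 2 in either direction), and FST (2.30 CPM), TGFB2 (3.19 CPM) and INHBA (43.6 CPM) are low together in cluster 4, where ID1 (825 CPM) and ID3 (686 CPM) are high.

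Within clusters TGFBR2 was higher with 5% pdRBC in all 7, with an interval leaving out 1 in 4 of them. This did not hold at the finer resolution of 1.0. There TGFBR2 was lower in the clusters led by AL138963.4 and BEST1 (fold 0.899), AC010226.1 (0.938) and HIF1A-AS3 (0.948), with intervals on both sides of 1. It was higher in the other finer clusters of 50 or more cells. Among the 7 clusters, the largest gap with narrow counting error was in cluster 1, 259 CPM with hRBC and 406 CPM with 5% pdRBC (1.57-fold). In cluster 3 the TGFBR2 levels were 241 and 246 CPM (1.02-fold). Of the 7 clusters, FST was lower with 5% pdRBC in the 4 with 20 or more of its UMIs. It went from 81.8 to 30.7 CPM in cluster 0 (2.65-fold lower), from 26.6 to 12.4 CPM in cluster 1 (2.15-fold lower) and from 51.1 to 31.3 CPM in cluster 3 (1.63-fold lower). In cluster 2 it had 81 UMIs with hRBC and 0 with 5% pdRBC, at least 2.53-fold lower when 3 counts over that cluster's 5% pdRBC cells are allowed. The exact interval, which also holds the counting error of the 81 UMIs, begins at 2.01-fold lower. Depth within a cluster also differed between the libraries. Median UMIs per cell with hRBC and 5% pdRBC were 2151 and 10381.5 in cluster 0 and 1518 and 3562 in cluster 2. They were 1428.5 and 9415 in cluster 5, and 7090 and 10099 in cluster 4. As in cluster 1, they were closer in cluster 3 (11420 and 10702.5) and cluster 6 (2288 and 2440.5). The part of depth in the folds within clusters was not tested. These FST folds also depended on the resolution. At 1.0 FST was at 33.2 and 32.7 CPM in the cluster led by HIF1A-AS3 (92 and 97 UMIs, fold 0.985). In the one led by AL138963.4 and BEST1 it was at 36.7 and 36.0 CPM (46 and 6 UMIs, fold 1.05). It was lower with 5% pdRBC in the other finer clusters with 20 or more FST UMIs. Among the 7 clusters, the sparse clusters 5 and 6 pointed the other way, with 1 and 0 FST UMIs with hRBC and 18 and 12 with 5% pdRBC. Their intervals also left out 1, beginning at 3.59-fold higher in cluster 5 and 1.96-fold higher in cluster 6. Cluster 5, with 19 FST UMIs in all, fell just short of the line of 20. The cycling and epithelial marker lists were also lower with 5% pdRBC. The 8 cycling markers, all measured, summed to 160 CPM with hRBC and 106 CPM with 5% pdRBC. The 6 epithelial markers, 3 of them measured and all 3 keratins, summed to 163 and 116 CPM, with CDH1 and KRT5 at 0 in both libraries. Without the cycling cluster FST was 1.56-fold lower with 5% pdRBC. The part of the keratin-bearing cells in the FST difference was not tested.

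INHBA differed in direction between clusters. It was 1.46-fold lower with 5% pdRBC in cluster 1 (127 and 86.8 CPM), 1.16-fold higher in cluster 3 (151 and 176 CPM) and 1.53-fold higher in cluster 4 (34.1 and 52.4 CPM). ID1 was lower with 5% pdRBC in 5 of 7 clusters, 4 of them with an interval leaving out 1. Beside cluster 1, these were cluster 0 (568 and 484 CPM, fold 0.852), cluster 2 (693 and 561 CPM, fold 0.813) and cluster 5 (630 and 385 CPM, fold 0.614). By the medians above, clusters 0, 2 and 5, and also cluster 4, were shallower with hRBC. The part of depth in the ID1 folds of these clusters was not tested. ID1 was higher in cluster 4 (767 and 879 CPM, 1.15-fold) and cluster 3 (550 and 582 CPM, 1.06-fold). ID3 was lower in 4 of 7, with an interval leaving out 1 in cluster 0 (653 and 589 CPM, fold 0.903), and it was 1.21-fold higher in cluster 4 (619 and 749 CPM). ENG was lower in 6 of 7 clusters. SMAD6 was higher with an interval leaving out 1 in cluster 0 (fold 1.15) and cluster 5 (19 and 45 UMIs, fold 2.94, 1.71 to 5.41). In cluster 3 SMAD6 was lower (fold 0.880, 0.812 to 0.954). BMP4 was higher in 3 of the 5 clusters with 20 or more of its UMIs. Its interval left out 1 only in cluster 2 (33 and 10 UMIs, fold 3.34, 1.42 to 6.72). TGFB2 was lower in 4 of 5 such clusters, with an interval leaving out 1 in cluster 3 (86 and 86 UMIs, fold 0.656, 0.481 to 0.896). SMAD7 was higher in 3 of 6, with an interval leaving out 1 in cluster 3 (fold 1.21, 1.02 to 1.45). Whether these folds differ between clusters was not tested.

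Within a library the members were only loosely correlated from cell to cell. Across 769 hRBC and 1370 5% pdRBC cells thinned to 5000 UMIs, Pearson's r of log2(UMI + 1) was highest for ENG with SMAD6, at 0.26 and 0.25, and ID1 with ID3 stood at 0.26 and 0.18. Thinned to 3000 UMIs ENG with SMAD6 stood at 0.157 and 0.153 and was no longer the highest, being below ID1 with ID3 in hRBC (0.162) and TGFB2 with FST in 5% pdRBC (0.18). ENG with ID1 gave 0.15 and 0.13, and INHBA with its antagonist FST 0.11 and 0.10. INHBA with ENG was negative, at -0.10 and -0.12. TGFB2 with FST gave 0.01 in hRBC and 0.21 in 5% pdRBC, on few cells with either gene. The cells of a library share its preparation, so these are descriptions.

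**Figure D5:**
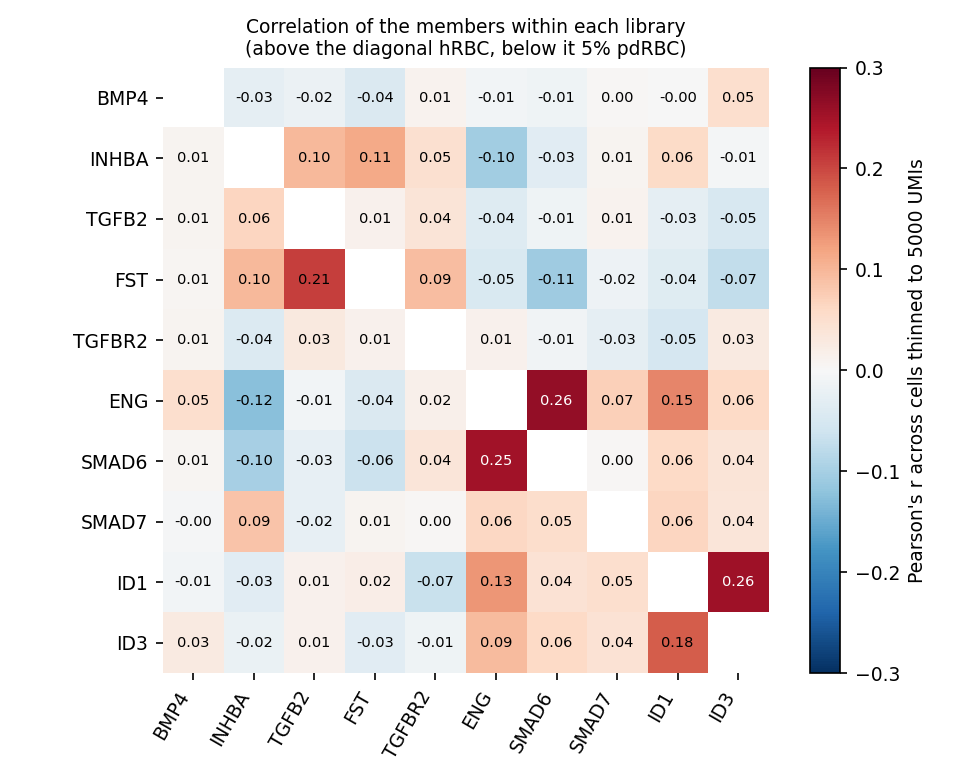
Pearson's r of each pair of the 10 genes across cells thinned to 5000 UMIs, hRBC (769 cells) above the diagonal and 5% pdRBC (1370 cells) below it. ENG with SMAD6 (0.26 and 0.25) and ID1 with ID3 (0.26 and 0.18) stand out in both libraries, and most other pairs lie near 0.

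Among about 5838 other genes seen in 10% or more of those cells, the genes most like INHBA were RGS4 (0.26 with hRBC and 0.24 with 5% pdRBC), CCN2 (0.21 and 0.20), itself a TGF-beta target, and ANKRD1 (0.20 and 0.25). Most like FST were KRT7 (0.25 and 0.22), AC004448.2 (0.20 and 0.22) and PTX3 (0.20 and 0.19). ENG went with TXNDC5 (0.26 and 0.31), then SMAD6 and MMP2 (0.23 and 0.27). SMAD6 went with ENG, then HSPG2 (0.26 and 0.22), which encodes the basement membrane proteoglycan perlecan, and NEAT1 (0.22 and 0.18). For ID1 they were MYL6 (0.26 and 0.24), PRDX1 (0.21 and 0.24) and ACTB (0.21 and 0.22). ID3 went with ID1, then HSPB1 (0.13 and 0.13) and NQO1 (0.13 and 0.12). TGFBR2 went with MCTP1 (0.14 and 0.21), LINC00607 (0.13 and 0.15) and CRIM1 (0.11 and 0.13). For BMP4 (TM2D2, SBF2 and EPHB4), TGFB2 (AC004448.2, SULF1 and FN1) and SMAD7 (THBS1, EPAS1 and HEY2) no gene exceeded 0.12 in both libraries, too weak to read in counts this sparse.

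The rest of the pathway, 81 other genes of which 58 were measured, differed little in size. Their median log2 fold was 0.07, and none passed 1.5-fold. Past 1.2-fold 9 were higher with 5% pdRBC (15.5%, against 10.4% of all measured genes) and 3 were lower (5.17%, against 7.43%). The interval left out 1 on the higher side for 21 (36.2%, against 15.4%) and on the lower side for 8 (13.8%, against 12.2%), a measure that small folds of abundant genes also meet. Of the other ligands 4 of 15 were measured. GDF11 was 1.31-fold higher, BMP6 went from 423 to 488 CPM (1.15-fold) and BMP2 from 121 to 137 CPM (1.14-fold), the first of these a ligand of activin-type receptors and the others BMPs. TGFB1 was the measured ligand that was lower, from 666 to 586 CPM (fold 0.880, 0.855 to 0.906). Of 18 antagonists and ligand-binding proteins 11 were measured and none passed 1.2-fold. The largest folds were those of FSTL1 (0.858), NOG (0.873), which encodes the BMP antagonist noggin, and LTBP4 (0.906). FSTL3, the closest relative of follistatin, stood at 35.9 and 37.3 CPM, a fold of 1.04 (0.919 to 1.17); it was named after its value was seen.

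Receptors were the role with the highest median, a log2 fold of 0.23 over 10 measured of 12, with 4 past 1.2-fold higher (40%, against 10.4% of all measured genes) and none past 1.2-fold lower. RGMB, a BMP co-receptor, went from 543 to 936 UMIs (1.42-fold, 1.28 to 1.59). TGFBR1, the type I partner of TGFBR2, went from 199 to 306 UMIs (1.27-fold, 1.06 to 1.53), and ACVR2B, an activin receptor, from 60 to 90 (1.24-fold, with an interval on both sides of 1). ACVR1B was the other. BMPR2, the type II BMP receptor, was lower by less, from 6989 to 7757 UMIs (524 and 481 CPM, fold 0.918, 0.888 to 0.948). TGFB1 and BMPR2 were named after their values were seen. All 6 signal transducers were measured, and SMAD1 was the single one past 1.2-fold (1.27-fold higher), with SMAD2 at 1.12 and SMAD9 at 0.919. None of the 13 inhibitors and feedback regulators, all measured, passed 1.2-fold: TGIF2 was at 1.15, LEMD3 at 0.877 and SKIL at 1.12.

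Targets pointed both ways. Of the BMP targets 4 of 6 were measured. ID2, a relative of ID1 and ID3, was 1.25-fold higher with 5% pdRBC and ATOH8 1.17-fold higher, while HEY2 was lower, with a fold of 0.761 (0.655 to 0.885). Of 11 TGF-beta targets 10 were measured. SNAI1, a repressor of epithelial genes, was 1.36-fold higher (46.3 and 63.1 CPM), whereas its relative SNAI2 (65 and 60 UMIs, fold 0.764) and TGFBI (74 and 62 UMIs, fold 0.694) were lower on few counts. TSC22D1 was 1.21-fold higher, the other past 1.2-fold.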

How the data were processed

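Raw UMI counts per gene and barcode were deposited, made by the authors with Cell Ranger 7.0.0 on GRCh38, per the submitters' processing notes, from 10x Genomics 5′ version 2 libraries, per the labels' protocols. Annotation release and strand setting: not given in the sources used here. The 3858 hRBC and 1635 5% pdRBC barcodes hold 14321939 and 16158876 UMIs. Kept cells had at least 1000 UMIs, at least 500 genes and no more than 20% mitochondrial UMIs. No doublets were removed. Counts were summed per library over all kept cells. The 10 genes, the lists and the rules were chosen with earlier results of these data known. Fold intervals are exact Clopper-Pearson intervals, level intervals exact Poisson ones. A count of 0 allows 3 counts, 0.225 CPM (hRBC) or 0.186 CPM (5% pdRBC). The fold script was tested on simulated data. Clusters come from Scanpy 1.11.5 (2000 variable genes, 30 components, 15 neighbours, Leiden resolution 0.5). Of the 10 genes, all were named. Of the pathway list, the 3 measured genes of each role with the largest absolute log2 folds were named, and for each of the 10 genes the 3 most alike across cells by the smaller r of the libraries. Named as well are the leading genes of clusters. The cluster alternatives, and the one on kept cells under 5000 UMIs, were chosen after seeing the data. Promoter windows are from RefSeq (GRCh38.p14), and gene positions from GENCODE 29 on GRCh38. The fibroblast and mural list summed to 394 and 348 CPM, nearly all RGS5, and the lymphatic list to 10.3 and 13.6 CPM.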

Additional observations from a re-analysis of the deposited data

How the results depend on the processing

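Over 14 alternatives the FST fold stayed below 1 and the TGFBR2 fold above 1. Of 136 alternative log2 folds of the 10 genes, 104 lay within the main counting interval and 29 outside it, and 3 turned a difference whose interval leaves out 1. TGFB2, SMAD6, SMAD7 and ID3, whose intervals hold 1, also changed sign under at least 1 alternative. INHBA turned to -0.037 without cluster 3, and ID1 to 0.018 in cells of 5000 or more UMIs and to 0.0076 without cluster 1. In kept cells under 5000 UMIs (8 of the 10 genes measured) the counts of the 10 genes were 2 past 1.5-fold lower, 3 past 1.2-fold lower and 1 past 1.2-fold higher, with a median log2 fold of -0.16. Of all genes measured there, 7.25%, 26.1% and 32.3% were past the same lines. Thinned to 2000 UMIs (9 measured) the counts of the 10 genes were 0 past 1.5-fold lower (1.19% of all genes measured there) and 4 past 1.2-fold higher (14.6%). Past 1.2-fold higher there was 1 gene with all barcodes, without cells above 25000 UMIs, without the cycling cluster and under median-of-ratios scaling, and 0 with cells weighted equally. The shares of all measured genes under these settings were, in that order, 9.56%, 11.1%, 10.4%, 9.20% and 16.0%. Past 1.2-fold lower there were 2 under the stricter cell filter (7.03% of all measured genes). Of the other pathway genes, 8 of 42 measured were past 1.5-fold higher in kept cells under 5000 UMIs (19.0%, against 15.04% of all genes measured there). There were 3 without cluster 1 (5.17%, against 1.53%), 3 thinned (6.38%, against 1.83%) and 3 at a gene minimum of 20 UMIs (4.62%, against 4.75%). With cells weighted equally there was 1 (1.72%, against 3.09%). Past 1.5-fold lower there were 3 in kept cells under 5000 UMIs (7.14%, against 7.25%). There was 1 without cluster 1 (1.72%, against 0.999%) and 1 with cells weighted equally (1.72%, against 2.43%). Past 1.2-fold higher there were 19 in kept cells under 5000 UMIs (45.2%, against 32.3%) and 14 at the minimum of 20 UMIs (21.5%, against 15.7%). Past 1.2-fold lower there were 7 in kept cells under 5000 UMIs (16.7%, against 26.1%) and 7 without cluster 3 (12.7%, against 11.0%). With equal weights there were also 7 (12.1%, against 14.3%), and at a minimum of 500 UMIs 1 (2.08%, against 4.66%). The cause of these shifts was not tested, other than that a gene minimum changes how many genes are tested. Shares of cells moved with the thinning depth, and 7 alternative values of correlations moved by more than 2 standard errors while 173 did not, none of 0.1 or more changing sign. At resolution 1.0 the ratio of the highest to the lowest cluster was 12.7 for SMAD7 (main 2.76), 8.76 for SMAD6 (5.39) and 2.75 for ENG (1.40), and clustering on the 10 genes too gave 4.57 for BMP4 (2.56). The cluster ratio has no value where the lowest cluster was at 0 (TGFB2 and FST at resolution 1.0, FST when clustered on the 10 genes too). No paired analysis was possible because each group is 1 library, and for the same reason no library could be left out.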

Other observations

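Several ligand, antagonist and receptor genes of the pathways were close to or at 0. BMP7, GDF10, NODAL and CHRDL1 had no UMI in either library, which allows up to 0.225 CPM with hRBC and 0.186 CPM with 5% pdRBC. BMPR1A, a type I BMP receptor, had 4 and 5 UMIs, and its relative BMPR1B 231 and 322. Of the antisense genes at the 10 genes' positions, INHBA-AS1 had 5 and 16 UMIs, and TGFB2-AS1 none in either library. BMPR1A and the antisense genes were chosen after their values were seen.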
